A study of Mus musculus with 16 samples.

Results

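The Toll-like receptor genes followed here as members were Tlr1, Tlr2, Tlr3, Tlr4, Tlr5, Tlr6, Tlr7, Tlr8, Tlr9 and Tlr13, taken by gene symbol from a mouse expression array. They are 10 of the 20581 genes with a symbol on the array and were read by 11 probes. Tlr11 and Tlr12 were also measured but are not among the 10, and are given below with the co-receptors. The RNA came from CD11b+ cells, that is, cells carrying the myeloid integrin CD11b, isolated from spleen or bone marrow. The mice were wild type (WT), STAT4-/-, STAT6-/- or HDC-/-, the last lacking the enzyme that makes histamine, and ate a control diet or a high-fat diet (HFD). The HFD ran for 3 months as a model of atherosclerosis. The 4 genotypes, 2 tissues and 2 diets gave 16 combinations, each measured on 1 array from a pool of 5 mice labelled male. No combination had a second array, so no test had repeat arrays from which to take a spread. In the main model the spread was how far the diet difference varied between genotypes within each tissue. Mouse strain and age are not given in the sources used here, nor whether spleen and marrow pools shared mice.

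Toll-like receptors are membrane proteins with which myeloid cells sense microbial molecules. Tlr1, Tlr2, Tlr4, Tlr5 and Tlr6 act at the cell surface on bacterial lipoproteins, lipopolysaccharide and flagellin, with Tlr2 pairing with Tlr1 or Tlr6. Tlr3, Tlr7, Tlr8, Tlr9 and Tlr13 act in endosomes on nucleic acids. Most signal through the adaptor Myd88 to NF-kB and interferon regulatory factors, while Tlr3 uses Ticam1 and Tlr4 uses both routes. Tlr2 and Tlr4 have been studied in atherosclerosis as receptors on plaque macrophages.

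Several arrays stood apart from their labels. Across arrays the median signal lay between 69.4 and 165 intensity units, and between 59.9% and 85.3% of probes were well above background. The STAT4-/- and HDC-/- arrays on the control diet, 4 in all, lacked Y-linked signal, with a mean level of -8.39 to -5.57 against -0.61 to 0.35 on the other 12 arrays. These 4 arrays therefore go against the label male, and the diet comparison within these genotypes also sets such an array against one with Y-linked signal. Tlr7, Tlr8 and Tlr13 lie on chromosome X. Over all features, the STAT4-/- spleen HFD array correlated better with marrow arrays (mean r = 0.970) than with spleen arrays (0.947), and the HDC-/- marrow control array better with spleen (0.954) than with marrow (0.947). Stat4 itself stood at 3.51 in spleen and 2.74 in marrow on the HFD arrays labelled STAT4-/-, above WT at 1.19 and 0.18 on that diet, so that the arrays labelled STAT4-/- are named by label only. Stat6 stood at 2.54 to 3.04 on STAT6-/- arrays and at 3.44 to 4.14 on WT arrays, but also at 2.57 and 2.34 on the control-diet arrays labelled STAT4-/-. The only Hdc probe carried spots marked as unusable and was left out. Whether the Stat4 and Stat6 probes lie in the deleted exons is not known here, so none of these 3 genes settles a label. Itgam, which encodes CD11b, was well above background throughout, at 3.13 to 6.05 in spleen and 4.74 to 6.06 in marrow.

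Levels below are log2 intensities relative to the 75th percentile of their array, so that 0 is the 75th percentile. They compare arrays for 1 gene and not 1 gene with another. All but Tlr3 and Tlr8 were well above background on 16 of 16 arrays. Tlr8, an endosomal receptor encoded beside Tlr7, was above background on 15 arrays, missing on the STAT6-/- marrow HFD array. Tlr3, the receptor of double-stranded RNA, passed on 8 arrays: 7 of 8 spleen arrays and 1 of 8 marrow arrays. All 10 members were kept, since a gene needed signal on 2 arrays. Tlr2 was read from a probe with 10 spots per array, whose log2 values had an SD of 0.03 to 0.19 within an array. Tlr7, the receptor of single-stranded RNA, had 2 probes, of which the brighter was used.

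**Figure D1:**
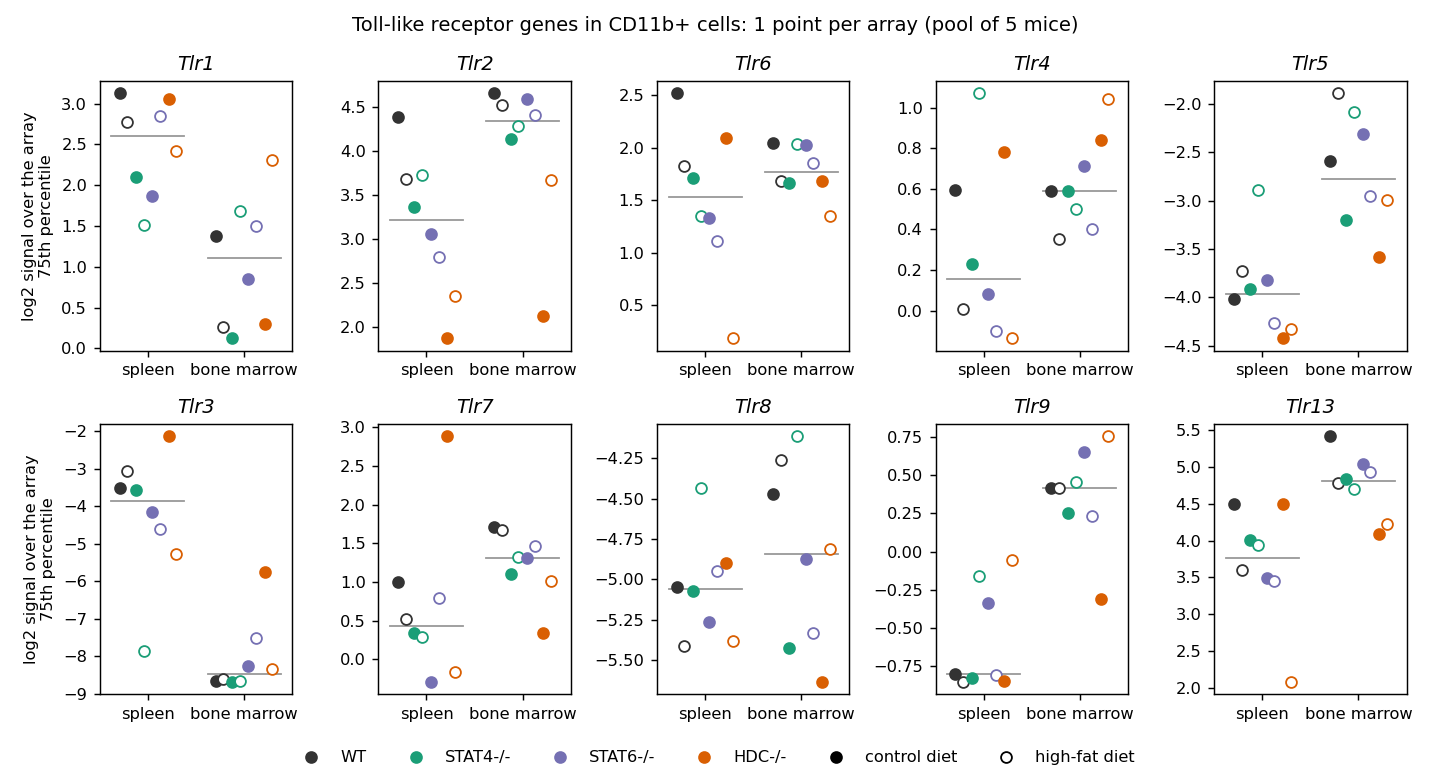
Level of each receptor gene (log2 intensity over the 75th percentile of the array, own axis per gene) in spleen and bone marrow; each point is 1 array, colour gives genotype, filled is control diet, open is high-fat diet, and the grey line is the median of 8 arrays. Tlr3 lies higher in spleen except on the STAT4-/- HFD array at -7.86, and Tlr2 is lowest on HDC-/- arrays in both tissues.

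Levels of 6 of the 10 Toll-like receptor transcripts differed between spleen and marrow cells. Tlr3 and Tlr1 were higher in spleen, and Tlr5, Tlr13, Tlr9 and Tlr2 were higher in marrow. In bulk RNA, fewer cells of a type and less RNA per cell cannot be told apart. By limma with Benjamini-Hochberg adjustment over 28783 features, 2 members were called higher in spleen and 4 lower, and 4 were not called. Of all features 32% were called, 14.9% higher and 17.1% lower, so tissue differences were common across the genome. The median difference, spleen minus marrow, was -0.44 for the 10 members and -0.06 for all features. Tlr11 and Tlr12, which are outside these 10, were also called higher in spleen (4.14 and 3.18). Each slide held 1 tissue, so slide and tissue cannot be told apart.

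Tlr3 ranged in spleen from -7.86 through a median of -3.86 to -2.14, and in marrow from -8.68 through -8.48 to -5.76. The ranges overlapped only through the array labelled STAT4-/- spleen HFD, at -7.86. The other 7 spleen arrays, from -5.28 up, all lay above the 8 marrow arrays. The highest marrow array was HDC-/- control, at -5.76, with the other 7 at -7.51 and below. The fitted difference was 3.79 ± 0.54 (SE, adjusted p = 0.00118), with spleen higher in 8 of 8 matched pairs. Since 7 marrow arrays were not well above background, this difference is not a measured fold. It fell to 1.18 when background was modelled from the median signals, and was still called. Tlr1, which pairs with Tlr2 to detect triacylated lipopeptides, had a spleen median of 2.60 (1.51 to 3.13) and a marrow median of 1.11 (0.12 to 2.31). The difference was 1.41 ± 0.34 (adjusted p = 0.0117), 2.66-fold, higher in spleen in 7 of 8 pairs; the ranges overlapped. Without the 4 arrays lacking Y-linked signal it was 0.67 and not called (adjusted p = 0.284).

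Tlr5, the flagellin receptor, had a spleen median of -3.96 (-4.42 to -2.89) and a marrow median of -2.77 (-3.58 to -1.89). The difference was -1.22 ± 0.24 (adjusted p = 0.00491), 2.33-fold lower in spleen, with all 8 pairs the same way. Tlr9, the receptor of unmethylated CpG DNA, had a spleen median of -0.80 (-0.85 to -0.06) and a marrow median of 0.42 (-0.31 to 0.75). It was lower in spleen by 1.93-fold (-0.95 ± 0.22, adjusted p = 0.0108) in 8 of 8 pairs, but missed the threshold without the 4 arrays lacking Y-linked signal (adjusted p = 0.0598) and without scaling (0.0821). Tlr13, a mouse receptor of bacterial ribosomal RNA, had medians of 3.77 (2.08 to 4.50) and 4.81 (4.09 to 5.42), a difference of -1.06 ± 0.27 (adjusted p = 0.0147) seen in 7 of 8 pairs. Its call was lost under quantile normalization (adjusted p = 0.0504), modelled background (0.0689) and no scaling (0.136). Tlr2 had medians of 3.21 (1.87 to 4.38) and 4.34 (2.12 to 4.65) and differed by -0.89 ± 0.24 (adjusted p = 0.0189) in 8 of 8 pairs. Its call was lost without scaling (adjusted p = 0.125), without the 4 arrays lacking Y-linked signal (0.0545) and without any of 6 single arrays (adjusted p up to 0.0614): WT spleen HFD, WT marrow control, STAT6-/- spleen HFD, HDC-/- spleen control, and the control-diet arrays labelled STAT4-/- from spleen and marrow. Spleen and marrow ranges overlapped for each of these 4 genes.

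The other 4 members did not pass the test. The lipopolysaccharide receptor Tlr4 differed by -0.31 (95% interval -0.78 to 0.16), and Tlr6, which pairs with Tlr2 for diacylated lipopeptides, by -0.28 (-0.76 to 0.21). Tlr8 differed by -0.19 (-0.71 to 0.33). Tlr7 differed by -0.57 (-1.39 to 0.26), although it was lower in spleen in 7 of 8 pairs. The exception was the HDC-/- control pair, where Tlr7 was 2.54 higher in spleen; without that spleen array the difference was -0.97 and was called (adjusted p = 0.0185). With WT and STAT6-/- arrays alone it was -1.03 and was also called (adjusted p = 0.0491). The second Tlr7 probe gave -0.09. Without scaling, the sign turned for Tlr4 (0.12), Tlr6 (0.15) and Tlr8 (0.24), while the median over all features moved from -0.06 to 0.37.

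**Figure D2:**
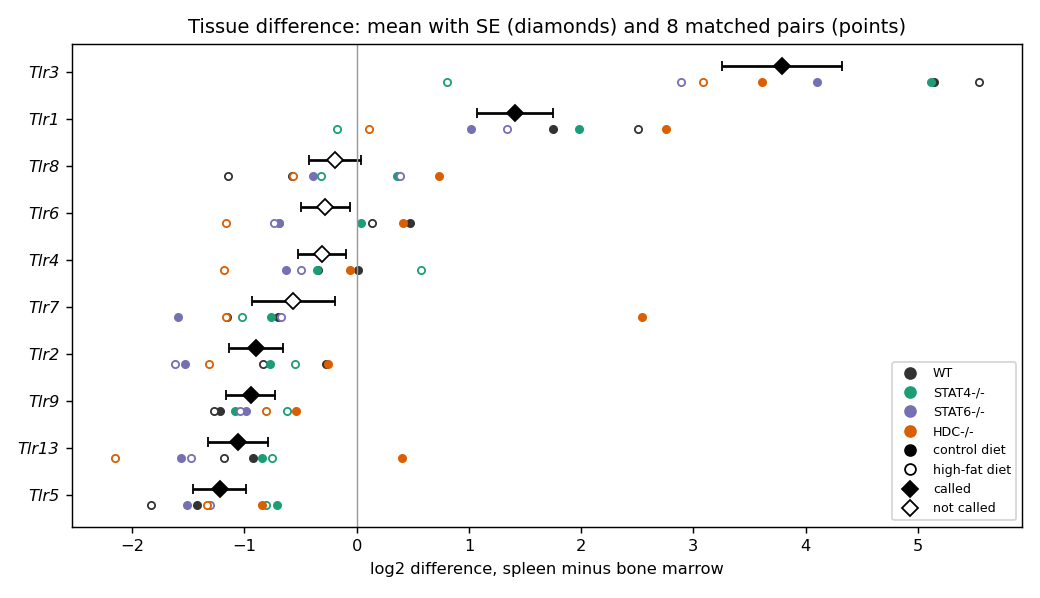
Spleen minus marrow difference in log2 signal for each receptor gene; diamonds with bars are the fitted mean and SE (filled where called), and points are 8 pairs, each of 1 genotype on 1 diet. Tlr3 (3.79) and Tlr1 (1.41) stand right of 0, Tlr2, Tlr9, Tlr13 and Tlr5 left of it, and the lone Tlr7 point at 2.54 is the HDC-/- control pair.

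The promoter windows of the members were searched for 3 short motifs. The windows run from 250 bases before to 50 bases after the start in RefSeq (GRCm38.p6), and were found for 8 members; Tlr4 and Tlr7 have none shown. Searched on both strands were the interferon response core GAAANNGAA, the core GAGGAA bound by the myeloid factor PU.1, and the STAT site TTCNNNGAA, which are held by 8.56%, 28.3% and 8.30% of all 32851 windows of this length. The Tlr3, Tlr2 and Tlr5 windows held none of these letter patterns. Tlr1 held 1 PU.1 core in the window shown and 1 STAT site in its other window, Tlr9 held 2 PU.1 cores and Tlr13 held 1. Tlr8 held 1 match of each motif. Tlr6 has 2 windows: the first holds 2 interferon response cores, which overlap each other, and the second 2 STAT sites. Shown are the windows of both spleen-higher genes, of Tlr9 and Tlr13, which were lower in spleen, and of Tlr6, which was not called but holds the overlapping cores, with matches in capitals, 5′ to 3′ along the gene; their positions are chr8:45410331-45410630 (minus strand) for Tlr3, chr5:64933509-64933808 (minus strand) for Tlr1, chr9:106222348-106222647 (plus strand) for Tlr9, chrX:106143025-106143324 (plus strand) for Tlr13 and chr5:64959117-64959416 (minus strand) for Tlr6.
Tlr3: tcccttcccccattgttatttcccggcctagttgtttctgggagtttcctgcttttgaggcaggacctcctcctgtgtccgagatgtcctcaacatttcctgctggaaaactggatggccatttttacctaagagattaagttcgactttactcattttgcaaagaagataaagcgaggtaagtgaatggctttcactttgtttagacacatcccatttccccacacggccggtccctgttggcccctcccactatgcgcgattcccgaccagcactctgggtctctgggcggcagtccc
Tlr1: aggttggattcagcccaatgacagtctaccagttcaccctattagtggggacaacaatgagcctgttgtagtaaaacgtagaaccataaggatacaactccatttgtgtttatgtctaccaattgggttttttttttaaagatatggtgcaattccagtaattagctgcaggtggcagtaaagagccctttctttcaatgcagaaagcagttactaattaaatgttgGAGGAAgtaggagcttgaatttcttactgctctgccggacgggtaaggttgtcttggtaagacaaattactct
Tlr9: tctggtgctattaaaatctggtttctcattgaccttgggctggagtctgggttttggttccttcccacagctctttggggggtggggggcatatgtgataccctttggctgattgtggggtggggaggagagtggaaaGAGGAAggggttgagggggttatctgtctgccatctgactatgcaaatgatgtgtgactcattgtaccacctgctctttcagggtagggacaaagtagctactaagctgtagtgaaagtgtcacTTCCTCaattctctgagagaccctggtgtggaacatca
Tlr13: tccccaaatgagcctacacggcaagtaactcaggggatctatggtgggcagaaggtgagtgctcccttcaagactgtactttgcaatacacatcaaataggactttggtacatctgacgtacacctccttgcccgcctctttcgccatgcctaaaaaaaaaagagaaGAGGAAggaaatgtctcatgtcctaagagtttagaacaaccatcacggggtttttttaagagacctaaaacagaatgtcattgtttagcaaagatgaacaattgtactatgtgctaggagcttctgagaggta
Tlr6: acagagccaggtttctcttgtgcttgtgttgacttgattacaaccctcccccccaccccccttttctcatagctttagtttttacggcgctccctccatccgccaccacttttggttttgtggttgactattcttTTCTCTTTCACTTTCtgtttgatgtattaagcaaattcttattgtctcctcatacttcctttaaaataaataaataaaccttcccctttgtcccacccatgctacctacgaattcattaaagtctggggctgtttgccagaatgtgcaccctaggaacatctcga

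Markers of several other cell types moved with tissue. Markers of mature lymphoid and of conventional dendritic cells were higher in spleen. Beside the marker lists, 14.9% of all features were called higher in spleen and 17.1% lower. Called higher there were 8 of 8 B cell, 6 of 7 T cell (with 1 lower) and 6 of 6 natural killer cell genes. So were 7 of 7 conventional dendritic cell and 7 of 8 red pulp macrophage genes. The mean B cell marker level ran from -0.72 to 2.50 in spleen and from -2.58 to -0.14 in marrow. That of conventional dendritic cells ran from -2.39 to 0.03 in spleen and from -3.88 to -2.73 in marrow. Pro-B and pre-B cell markers went the other way, with 5 of 8 genes lower in spleen and 1 higher, and means of -4.43 to -2.52 in spleen against -4.05 to 1.89 in marrow. Neutrophil markers were lower in spleen for 4 of 7 genes, with means of 3.85 to 5.54 against 4.96 to 5.67. Plasmacytoid dendritic cell means overlapped between tissues, at -1.21 to 0.93 in spleen and -1.28 to 0.44 in marrow. So did those of classical monocytes (3.10 to 4.18 and 3.81 to 4.32) and nonclassical monocytes (0.72 to 2.75 and 0.88 to 1.38). Erythroid means also overlapped (-1.89 to 3.17 and -1.72 to 0.92). Overlap was also present for the B cell, natural killer cell, red pulp macrophage, pro-B and pre-B cell and neutrophil means. The spleen array with the lowest B cell (-0.72) and conventional dendritic cell (-2.39) means was the STAT4-/- HFD array. It also had the lowest spleen Tlr3 and the highest spleen Tlr5. The HDC-/- marrow control array, which had the highest marrow Tlr3, had the highest marrow means of B cell (-0.14) and conventional dendritic cell (-2.73) markers. Its means of red pulp macrophage (1.51) and of pro-B and pre-B cell markers (1.89, others at most -0.40) were also the highest in marrow. The part of these cells in the receptor differences was not tested.

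Co-receptors and trafficking proteins of the pathway formed a list of 18 genes, which also holds Tlr11 and Tlr12, mouse receptors of parasite profilin. In spleen 8 were higher and 3 lower, with a median of 0.47, beside 14.9% higher, 17.1% lower and a median of -0.06 over all features. Without scaling, which moved the median of all features to 0.37, 10 were higher and 0 lower. Tlr11 ran from -8.56 to -4.58 in marrow and from -3.28 to -0.64 in spleen, without overlap, and was 4.14 ± 0.34 higher in spleen (adjusted p = 0.000160); 2 of 8 marrow arrays were not well above background. Tlr12 was 3.18 ± 0.54 higher, the scavenger receptor Cd36 2.75 ± 0.43 and Cd180, a Tlr4-like receptor of B cells, 2.57 ± 0.37, with 3 of 8 marrow arrays not above background for Cd180. The lipopolysaccharide-binding protein Lbp (-1.66), the lysosomal transporter Slc15a3 (-1.24) and the endosomal protease Ctsl (-0.92) were lower in spleen, but not without scaling.

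The signalling lists held genes called in both directions, and their counts moved with the scaling and with the arrays included. Beside each list, 14.9% of all features were called higher in spleen and 17.1% lower. Without scaling 9457 of the 28783 features were called, 82.5% of them higher. Of 24 adaptors and kinases, 1 was higher in spleen (Ikbkb, 0.51) and 5 were lower, among them Tab3 (-1.19), Ripk1 (-0.72), Pik3ap1 (-0.72) and Tirap (-0.66), the adaptor that brings Myd88 to Tlr2 and Tlr4. The share lower is near the 17.1% of all features. Without the 4 arrays lacking Y-linked signal these counts were 0 and 1, and without scaling they were 3 and 1. Of 13 transcription factors 4 were higher in spleen, namely Irf8 (1.75), Relb (1.51), Irf5 (1.40) and Nfkb2 (0.86), and Nfkb1 was lower (-0.59). Without the 4 arrays 2 were higher and 1 lower, and no gene of this list was called lower without scaling, under quantile normalization or without the HDC-/- spleen control array. Of 18 negative regulators 3 were higher, led by Sigirr (1.15), and 4 were lower, led by Dok3 (-1.08) and Irak3 (-1.06), which blocks release of Irak1 from the receptor complex. These became 1 and 1 without the 4 arrays, and 4 and 0 without scaling. Of 16 other pattern receptors 4 were higher, with Clec4n, or Dectin-2, at 2.24 and the inflammasome receptor Nlrc4 at 1.52, and 4 lower, with Clec4d at -0.97 and the mycobacterial lipid receptor Clec4e at -0.87. Without the 4 arrays they were 2 and 1, and without scaling 4 and 0. Of 13 cytokine target genes Ccl5 (3.41), Il10 (1.37), Il23a (1.27) and Cxcl10 (0.94) were higher and Il12a lower (-0.97, adjusted p = 0.0493); without the 4 arrays 1 was higher and 1 lower, and without scaling 5 and 0. Clec7a, Clec6a and Il12b were not tested.

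The high-fat diet moved no Toll-like receptor transcript past the threshold in either tissue. Limma called 0 of 28783 features (0%) in spleen, in marrow, over both tissues and for the difference between tissues, while 1302 features in spleen and 1737 in marrow had an unadjusted p under 0.05. The median change of the 10 members was -0.18 in spleen and 0.24 in marrow, beside 0.15 and 0.11 for all features. In spleen 3 members had an unadjusted p under the threshold and in marrow none had.

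Tlr6 and Tlr13 were the members lower on HFD in all 4 spleen pairs. Tlr6 went from 2.52 to 1.83 in WT, from 1.71 to 1.35 under the STAT4-/- label, from 1.33 to 1.11 in STAT6-/- and from 2.09 to 0.18 in HDC-/-. Tlr13 went from 4.49 to 3.60, from 4.01 to 3.94, from 3.49 to 3.46 and from 4.50 to 2.08 in the same order. The fitted differences were -0.79 ± 0.31 and -0.85 ± 0.38, both with adjusted p = 0.770. Control and HFD arrays overlapped for both genes, and the HDC-/- pair carried the largest drop. Leaving out either one of the HDC-/- spleen arrays, the differences were -0.42 and -0.33. In marrow the changes were -0.12 ± 0.31 and -0.19 ± 0.38, and the difference between tissues was not called.

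Tlr3 had a fitted spleen change of -1.86 ± 0.76 (adjusted p = 0.770), with the largest drops in the pairs holding an array that lacked Y-linked signal. It went from -3.57 to -7.86 under the STAT4-/- label and from -2.14 to -5.28 in HDC-/-, but from -3.52 to -3.06 in WT and from -4.16 to -4.62 in STAT6-/-. On the array at -7.86 Tlr3 was not well above background, so neither that drop nor the fitted change is a measured fold. With WT and STAT6-/- alone the fitted change was 0.0036. Tlr7 fell from 2.88 to -0.16 between the HDC-/- spleen arrays and differed by 1.08 or less in size in the other 3 genotypes. The remaining members, Tlr1, Tlr2, Tlr4, Tlr5, Tlr8 and Tlr9, had spleen changes between -0.21 and 0.24. In marrow the widest fitted change was that of Tlr1, 0.78 (95% interval -0.28 to 1.84), with WT going from 1.37 to 0.27 and HDC-/- from 0.30 to 2.31. The diet response did not differ from that of WT past the threshold for any member in any knockout, in a model where 0%, 0% and 0.00695% of features were called for STAT4-/-, STAT6-/- and HDC-/-. In that model the unadjusted p was under 0.05 for Tlr3 under the STAT4-/- label (-2.40) and for Tlr3 (-3.13) and Tlr2 (1.44) in HDC-/-. Of all features, 5.18% had such a p for the STAT4-/- label and 12.2% for HDC-/-. The Tlr3 values of that model average over both tissues, and Tlr3 was well above background on 1 of 8 marrow arrays.

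**Figure D3:**
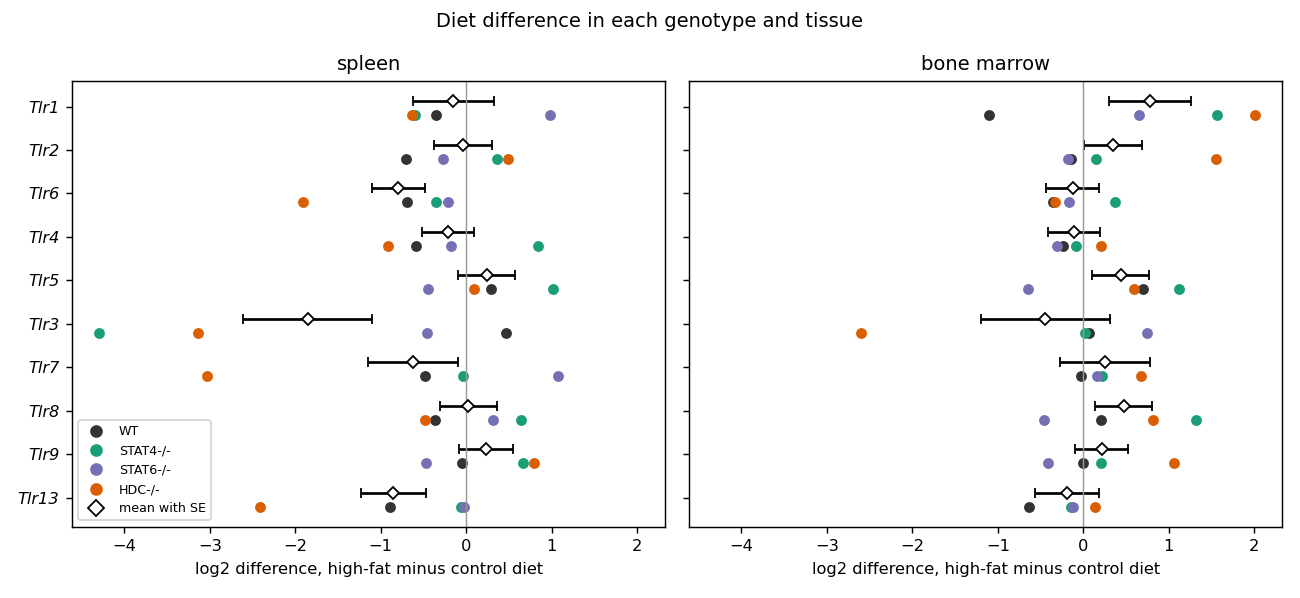
High-fat minus control diet difference in log2 signal for each receptor gene, in spleen (left) and marrow (right); coloured points are the 4 genotypes and open diamonds with bars the fitted mean and SE. Tlr6 and Tlr13 lie left of 0 in all 4 spleen pairs, and the Tlr3 mean of -1.86 rests on the STAT4-/- and HDC-/- pairs.

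Pathway genes showed no called diet change either, in spleen or marrow, in any of the 6 lists. Of the 16 other pattern receptors, 1 was above 0 in spleen, with a median of -0.45 beside 0.15 for all features. Their mean spleen level went from 2.24 to 1.61 in WT and from 2.18 to 0.85 in HDC-/-. Under the STAT4-/- label it went from 1.38 to 1.30, and in STAT6-/- from 1.27 to 1.25. Among these receptors Nod2, a sensor of bacterial muramyl dipeptide, stood at -1.37 ± 0.39 with adjusted p = 0.770. In spleen Tlr11 was at -1.25 and in marrow at -1.72, lower on HFD in 4 of 4 pairs in each, with adjusted p = 0.770 and 0.698. Tlr11 was not well above background on the STAT6-/- and HDC-/- marrow HFD arrays, so its marrow change is not a measured fold.

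Genotype comparisons averaged both tissues, with 4 matched pairs each. No member was called for STAT4-/-, STAT6-/- or HDC-/- against WT, nor for HDC-/- against STAT6-/-; limma called 0.0174%, 0.0313%, 0.153% and 0.0104% of all features. The unadjusted p was under 0.05 for 0, 0, 4 and 1 members, beside 9.95%, 6.85%, 10.9% and 6.44% of all features. STAT6-/- and HDC-/- arrays lay on other slides than WT, so for these slide and genotype cannot be told apart, whereas STAT4-/- shared slides with WT and HDC-/- with STAT6-/-. The 3 knockout comparisons share the WT arrays.

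Tlr2 was the member that differed most between HDC-/- and WT. In spleen it stood at 4.38 and 3.68 in WT on control diet and HFD, and at 1.87 and 2.36 in HDC-/-. In marrow it stood at 4.65 and 4.51 in WT and at 2.12 and 3.67 in HDC-/-. In each tissue both HDC-/- arrays lay below both WT arrays. They also lay below those of the other genotypes: 3.36 and 3.73 under the STAT4-/- label and 3.06 and 2.79 in STAT6-/- in spleen, and 4.14, 4.28, 4.59 and 4.41 in marrow. The fitted difference from WT was -1.80 ± 0.34, or 3.48-fold lower, in 4 of 4 pairs, with adjusted p = 0.0939. Against STAT6-/-, on the same slides, it was -1.21 ± 0.34 (adjusted p = 0.580), again in 4 of 4 pairs. With a trended, robust prior variance the difference from WT was called (adjusted p = 0.0397). It was also called without the HDC-/- marrow HFD array (-2.20, adjusted p = 0.0249), whereas without the 4 arrays lacking Y-linked signal it was -1.13 (0.275). The other members with an unadjusted p under the threshold were Tlr13 (-0.85 ± 0.38), Tlr5 (-0.78 ± 0.34) and Tlr6 (-0.69 ± 0.31), with adjusted p from 0.442 to 0.457.

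Within marrow alone Tlr2 was called lower in HDC-/- than in WT, by -1.69 ± 0.48 (adjusted p = 0.0475). There 12% of all features were called, 11.8% in the lower direction, and the median over all features was -0.45. The call was lost under median scaling (adjusted p = 0.113), quantile normalization (0.121) and without the HDC-/- marrow control array (-0.88, adjusted p = 0.459). Of the 16 fits without a single array, it was kept in those leaving out one or the other STAT6-/- marrow array or the HDC-/- marrow HFD array, and lost in all others. In spleen the difference was -1.91 ± 0.48 (adjusted p = 0.171, 0.0278% of features called). Besides Tlr2, no member was called in any of the 6 comparisons of a knockout with WT in 1 tissue; the others had 0.0104% of features called in spleen and 0.0104% in marrow for STAT4-/-, and 0.0139% and 3.35% for STAT6-/-. Nor was any called for the difference of a knockout effect between tissues, where 0%, 7.45% and 16.4% of features were called for STAT4-/-, STAT6-/- and HDC-/-.

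**Figure D4:**
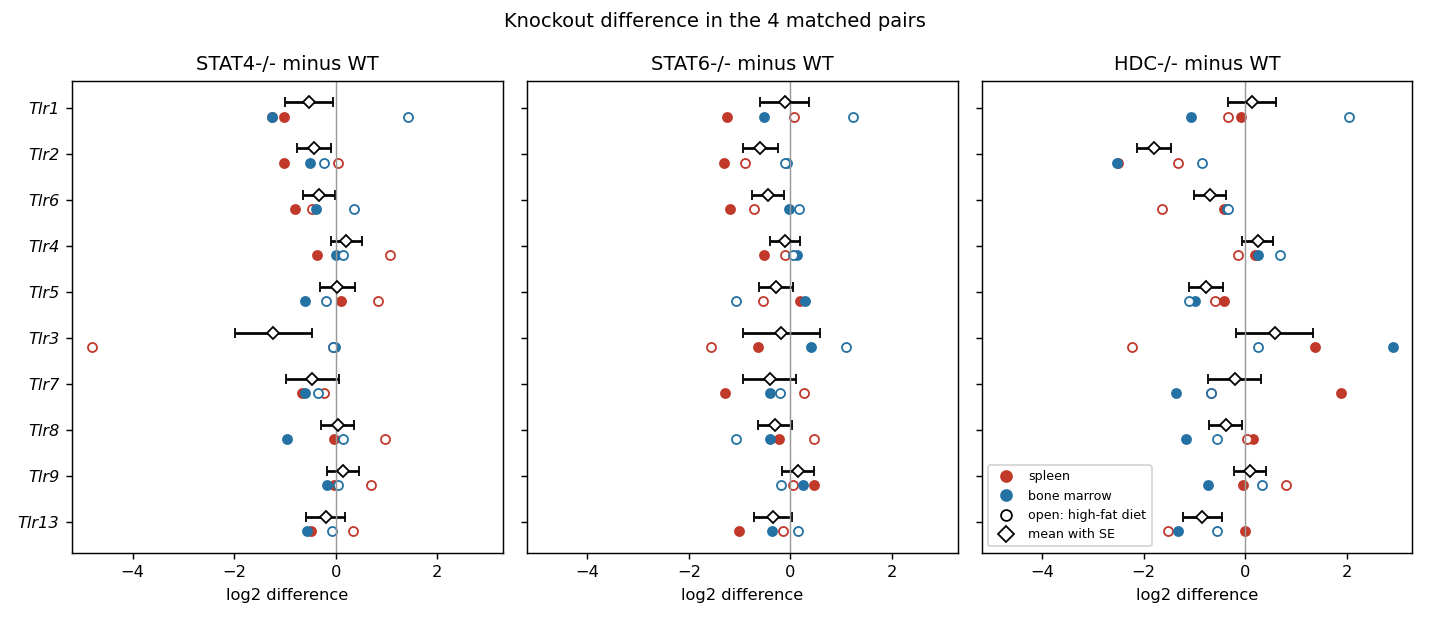
Knockout minus WT difference in log2 signal for each receptor gene and knockout label; points are the 4 pairs matched for tissue and diet (red spleen, blue marrow, open HFD) and diamonds with bars the fitted mean and SE. Tlr2 in HDC-/- lies left of 0 in 4 of 4 pairs with a mean of -1.80, and the Tlr3 point at -4.80 is the spleen HFD array labelled STAT4-/-.

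Tlr7 and Tlr3 carried the widest single departures. Tlr7 stood at 2.88 on the HDC-/- spleen control array and between -0.29 and 1.00 on the other 7 spleen arrays, and the second probe gave 2.76 against -0.20 to 1.02. Of the other arrays lacking Y-linked signal, the spleen array labelled STAT4-/- and the HDC-/- marrow array had Tlr7 at 0.34 each. The HDC-/- spleen control array had the highest spleen level of Irf7 (2.71, others -1.35 to 1.37), an interferon regulatory factor downstream of Tlr7. It also had the highest spleen mean of nonclassical monocyte markers (2.75, others 0.72 to 1.76). It had the lowest neutrophil mean (3.85) and the lowest Itgam (3.13) in spleen. In marrow Irf7 and Tlr7 went apart: the HDC-/- control array had the highest Irf7 (1.00, others at most 0.10) and the lowest Tlr7 (0.34). Tlr3 in HDC-/- was above WT in spleen on control diet, at -2.14 against -3.52, and below it on HFD, at -5.28 against -3.06. In marrow it stood at -5.76 on the HDC-/- control array, where all other arrays were at -7.51 or below and not well above background.

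Tlr1, Tlr4, Tlr8 and Tlr9 showed no genotype order that held in all 4 pairs of HDC-/- with WT. Their fitted differences were 0.14 (95% interval -0.92 to 1.20), 0.25 (-0.42 to 0.91), -0.38 (-1.12 to 0.35) and 0.09 (-0.61 to 0.79). For STAT6-/- Tlr2 was lower than WT in 4 of 4 pairs, by -0.59 ± 0.34 (adjusted p = 0.846), and the other 9 members lay between -0.44 and 0.14. For the arrays labelled STAT4-/-, Tlr3 (-1.23 ± 0.76, adjusted p = 0.595) and Tlr7 (-0.46 ± 0.52, adjusted p = 0.781) were lower than WT in 4 of 4 pairs. The Tlr3 value came from the spleen HFD pair, at -4.80, where the array labelled STAT4-/- was not well above background. In the other 3 pairs the level was -3.57 against -3.52 in WT in spleen, and -8.68 against -8.66 and -8.67 against -8.60 in marrow, where neither was well above background.

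Downstream of the receptors, 2 of 13 cytokine target genes tested, Ccl4 and Il23a, were called lower in HDC-/- than in WT. Of the 13, 12 were below 0, with a median of -1.93 beside -0.07 for all features; 0.101% of all features were called lower. Ccl4, a chemokine of activated macrophages, stood in spleen at 4.86 and 3.82 in WT and at 2.05 and 2.14 in HDC-/- on control diet and HFD. In marrow it stood at 3.66 and 3.84 in WT and at 0.14 and 1.57 in HDC-/-. The groups did not overlap in either tissue, and the difference was -2.57 ± 0.38 (adjusted p = 0.0432). Il23a, a subunit of interleukin 23, was not well above background on the HDC-/- marrow control array. Its difference, 3.26 ± 0.50 lower on the log2 scale (adjusted p = 0.0432), is therefore not a measured fold. Neither was called without the HDC-/- spleen control array, without the HDC-/- marrow control array, under quantile normalization, without the 2 arrays nearer the other tissue or without the 4 arrays lacking Y-linked signal, where the median of the list was -1.05. Among transcription factors the stress-induced Atf3 was at -3.19 ± 0.66 (adjusted p = 0.126), and among negative regulators the ribonuclease gene Zc3h12a, which degrades cytokine mRNAs, was at -2.24 ± 0.44 (0.0990). In the marrow comparison of HDC-/- with WT, where 11.8% of all features were called lower, so were 2 of 13 cytokine targets (Il23a and Ccl4), 1 of 24 adaptors and kinases (Irak2), 2 of 13 transcription factors (Atf3 and Irf1) and 2 of 18 negative regulators (Zc3h12a and Sarm1). In each of these 4 lists 0 were called there under quantile normalization, without the HDC-/- marrow control array and without the 4 arrays lacking Y-linked signal. Sarm1 was above background on neither HDC-/- marrow array and was at least 1.27-fold lower. All 8 red pulp macrophage markers were above 0 in HDC-/- against WT, with a median of 1.29 and none called; their part in these values was not tested.

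**Figure D5:**
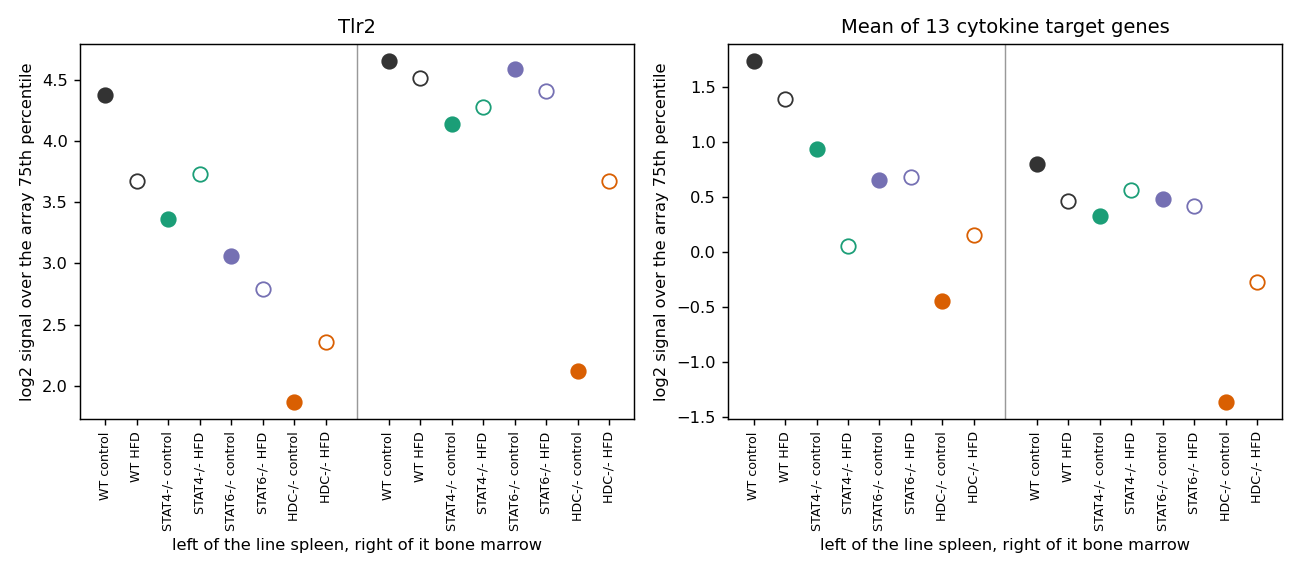
Level of Tlr2 (left) and mean level of 13 cytokine target genes (right) on each of the 16 arrays, as log2 intensity over the 75th percentile; spleen arrays are left of the grey line and marrow arrays right of it, filled is control diet and open HFD. The HDC-/- control arrays are lowest within each tissue in both panels.

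The members varied among themselves in a few shared ways. Within spleen, Tlr6 and Tlr13 had a Pearson r of 0.93 over 8 arrays, and within marrow 0.72. Tlr7 and Tlr13 had 0.63 and 0.82, and Tlr3 and Tlr9 had -0.76 in spleen. The heterodimer partners Tlr1 and Tlr2 had -0.14 and 0.20, Tlr2 and Tlr6 had 0.46 and 0.47, and the neighbouring genes Tlr7 and Tlr8 had 0.30 and 0.67. Tlr2 and Tlr7 had -0.37 in spleen and 0.94 in marrow. In marrow both genes were lowest on the HDC-/- control array, at 2.12 and 0.34. How far that array carries the marrow value was not tested. Arrays share slides, scaling and cell makeup, so these r values only describe the 16 arrays. Among 12807 or 12808 candidate genes, ranked by the lower of both within-tissue r values, the gene most like Tlr2 was Smim3 (0.96). It was followed by the decoy receptor of interleukin 1, Il1r2 (0.96). In marrow Il1r2 was also lowest on the HDC-/- control array, at 2.49. Tlr3 was well above background on 1 of 8 marrow arrays, so for it the within-spleen value alone is given. Cr2, a complement receptor of B cells that came first in this ranking, had 0.92 with Tlr3 in spleen, where Cr2 ran from -0.68 to 4.65. Both genes were lowest in spleen on the HFD array labelled STAT4-/-. For the remaining members the most alike gene was Rhobtb2 for Tlr1 (0.91), Tmem68 for Tlr4 (0.75), Tsga10 for Tlr5 (0.93), Hgsnat for Tlr6 (0.89), Ddit4 for Tlr7 (0.93), Olfr739 for Tlr8 (0.83), Gm13304 for Tlr9 (0.94) and Cdk5 for Tlr13 (0.93).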

How the data were processed

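CD11b+ cell RNA was read on 16 one-colour Cy3 arrays, 1 per combination of genotype, tissue and diet. The deposited files hold intensity values: per the file headers, these are processed signals from version 11.0.1.1 of Agilent's Feature Extraction, and array medians differed, so they were not scaled to a shared level. Groups came from the labels alone.

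Control spots and 305 probes marked on some array were left out of 39429. Probes were named through accessions in a RefSeq gene table; 27234 (69.1%) matched, and the rest were tested under their own identifiers. Processed intensity was put on the log2 scale and centred on each array's 75th percentile. Spots of a probe were averaged, the brightest probe stood for a gene, and features above background on 2 arrays or more were kept, giving 28783. No noncontrol spot was saturated. A bound ("at least") compares the brighter group with the dimmest signal above background.

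Limma 3.58.1 (R 4.3.3) fitted 8 means (genotype by tissue) plus 1 diet effect in spleen and 1 in marrow (6 residual degrees of freedom); diet by genotype used all pairwise terms (3). Tests were two-sided, adjusted by Benjamini-Hochberg over all features and called at 0.05. Code was tested on simulated data. Alternatives covered scaling, background, probe choice, filters, prior, model and left-out arrays. Named genes were the members and, per list, the up to 4 largest called in each direction, or the 2 with the smallest p. The levels of Cr2, Il1r2 and Irf7, and what the members shared with them, were looked up after values were seen. Members and lists were chosen with earlier results of these data known. The number of arrays limits the precision.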

Additional observations from a re-analysis of the deposited data

Results flagged for a closer look

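Within each tissue, the 8 arrays of each member were searched for a single array far from the rest by Dixon's gap test. It marked 5 of the 20 sets of 8 arrays, where chance marks about 1 in 20. Each set mixes genotypes and diets. In marrow, Tlr2 was 2.12 on the HDC-/- control array, with the next lowest at 3.67 and the highest at 4.65. On the same array Tlr3 was -5.76, with the next highest at -7.51 and the lowest at -8.68. In spleen, Tlr5 was -2.89 on the HFD array labelled STAT4-/-, with the next highest at -3.72. Tlr7 was 2.88 on the HDC-/- control array, with the next highest at 1.00. Tlr13 was 2.08 on the HDC-/- HFD array, with the next lowest at 3.46.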

How the results depend on the processing

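Across 16 alternatives to the tissue comparison the number of members called lay between 3 and 7, against 6; it was 3 without scaling and 3 without the 4 arrays lacking Y-linked signal. Leaving out single arrays gave 5 to 6. Under these alternatives and single arrays left out, Tlr3 and Tlr5 stayed called throughout, while Tlr1 lost its call under 1 alternative, Tlr9 under 2, Tlr13 under 3 and Tlr2 under 2 and without any of 6 single arrays. The diet comparisons stayed at 0 members, both within a tissue and over both tissues. So did the comparisons of STAT4-/- and of STAT6-/- with WT over both tissues. For HDC-/- against WT the count was 1 instead of 0 with a trended, robust prior, and 0 to 1 without single arrays. For a knockout against WT in each tissue the count of 1 (Tlr2 in marrow, HDC-/-) became 0 under median scaling, scaling on probes above background on all arrays, quantile normalization, modelled background, no filter, and without the 2 arrays nearer the other tissue; single arrays left out gave 0 to 1. Without the 4 arrays lacking Y-linked signal, the call moved to Tlr3 in spleen under the STAT4-/- label (-4.57). That fit leaves 1 spleen array of this label, the HFD array. On it Tlr3 was not well above background, and it is one of the arrays nearer the other tissue. The knockout effect in spleen minus marrow had 0 to 1 members without single arrays, the 1 being Tlr7 without the HDC-/- spleen HFD array (3.23, adjusted p = 0.0224). The causes of these changes were not tested. Slide as a random block could not be fitted beside means for each genotype in each tissue; in a model without them, chosen after seeing the data, it left the tissue calls at 6. By replicate number, no paired analysis was possible because that number is the tissue in the labels. A block on the 8 pairs of spleen and marrow arrays sharing genotype and diet, also added after seeing the data, left 7 residual degrees of freedom and the tissue calls at 6.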
